A study of Mus musculus with 6 samples.

Results

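The small leucine-rich proteoglycans (SLRPs) were examined in growth plate cartilage from embryos that express a mutant Idh1 in chondrocytes. The 10 SLRP genes Bgn, Dcn, Aspn, Fmod, Lum, Prelp, Kera, Omd, Epyc and Ogn were found by gene name among the 46078 genes counted in each library, and all 10 passed the filter on low counts that left 16813 genes for testing. RNA came from the distal femur and proximal tibia at E18.5, in 3 control libraries (Idh1 LSL/+) and 3 mutant libraries (Col2a1-Cre; Idh1 LSL/+). Both groups carried the lox-stop-lox Idh1 allele. The mutants alone carried Cre, under control of Col2a1 sequences that are active in chondrocytes, so that effects of Cre and of mutant Idh1 cannot be told apart. The labels number the replicates without saying that each came from a separate animal. The p-values therefore measure the spread between these samples, which may be technical apart from mutant 3. Counts of Xist and Y-linked genes, given below, set that library apart.

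SLRPs are secreted proteins with a core of leucine-rich repeats. Most of them bind collagen and take part in setting the thickness and spacing of collagen fibrils in cartilage, tendon, bone and cornea. Class I members such as biglycan and decorin carry chondroitin or dermatan sulfate chains, several class II members such as fibromodulin and lumican can carry keratan sulfate, and class III holds epiphycan and osteoglycin. Biglycan and decorin also bind growth factors of the TGF-beta family.

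Library totals ranged from 23445687 to 30415773 counts. A floor set at 3 counts came to 0.0986 to 0.128 counts per 1000000 of the library total, before any scaling, and covers counting error only. Elsewhere, CPM are counts per 1000000 counts of the tested genes, scaled with edgeR's TMM factors (0.964 to 1.02). No SLRP gene had fewer than 80 counts in any library. The tissue label was checked with 11 chondrocyte markers, whose summed level was 3924 to 8227 CPM in controls and 5864 to 8531 CPM in mutants, with none at 0. Skeletal muscle markers were also present, at 12851 to 18877 CPM and 12229 to 17870 CPM. Col1a1, a type I collagen gene, had 33199 to 47781 CPM in controls and 37903 to 39221 CPM in mutants. Col2a1, one of the chondrocyte markers, had 1923 to 4280 CPM and 3659 to 5245 CPM. Control 3 was the highest library in Col1a1 and the lowest in Col2a1. The SLRP levels are thus those of the dissected tissue as a whole, muscle included, and not of cartilage alone. The summed level of 6 erythroid markers was 545 to 1583 CPM in controls and 288 to 427 CPM in mutants, with none at 0. edgeR called 0 of the 6 (5 at an unadjusted p under 0.05), DESeq2 called 1, Alas2, and limma-voom called 0. Without the low-count filter edgeR called 5 of the 6, and DESeq2 with the replicate number as a block called 4, all lower in mutants. The part of these cells in the results was not tested. Of the chondrocyte and muscle markers edgeR, DESeq2 and limma-voom called 0 (0 at an unadjusted p under 0.05). Mutant 3 differed from the other libraries in Xist, the RNA that coats the silenced X chromosome, with 26356 counts against 0 to 13, and in the summed counts of Y-linked genes, with 512 against 4193 to 5829. It was therefore not a repeat of the same sample as another library. Among the genes described here, Bgn, Tnmd and Alas2 lie on the X chromosome.

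The difference between genotypes was uneven over the 10 SLRP genes. Their sum was 0.669% to 0.709% of all counts in controls and 0.555% to 0.581% in mutants, and Fmod and Bgn made up 80.5% of the difference between the group means. Without Fmod and Bgn the sum of the other 8 genes overlapped between groups, at 0.182% to 0.230% in controls and 0.159% to 0.211% in mutants. Within the family, Fmod took 26.9% ± 2.99 (SD, n = 3) of the summed RPKM in controls and 19.6% ± 3.34 (SD, n = 3) in mutants, and Lum took 7.89% ± 0.779 (SD, n = 3) and 11.1% ± 1.41 (SD, n = 3). These shares use the summed exon length, which for Bgn is 6099 bases against 2419 bases in its principal transcript. On principal transcript length the shares of Fmod and Lum would be lower. Fmod, Omd, Kera and Ogn had the fold changes furthest from 0 among the 10 genes, with mutant means 41.1%, 52.9%, 40.6% and 24.9% below the control means. With edgeR's quasi-likelihood test and Benjamini-Hochberg adjustment over all 16813 genes, 0 of the 10 had an adjusted p under 0.05, where 0.190% of all tested genes did. These 4 genes had an unadjusted p under 0.05, all lower in mutants, against 8.64% of all genes in either direction and 4.93% in that direction. DESeq2 called the same 4 genes (Fmod, Omd, Kera and Ogn) at an adjusted p under 0.05, where it called 1.15% of all genes, 0.839% as lower in mutants, and limma-voom called 0 (0.113% of all genes). Without the low-count filter edgeR called the same 4 (0.903% of all genes). With the replicate number as a block, edgeR called 0 (0.0178%) and DESeq2 called 3 (0.529%), Fmod, Kera and Omd. The call of these 4 genes thus depended on the test and on the low-count filter, and that of Ogn with DESeq2 also on the block, while their fold changes kept their direction under every setting tried. Mutants and controls did not overlap in 5 of the 10 genes (those 4 and Bgn), all with lower mutants, as in 7.58% of the tested genes. The fold change was below 0 in 8 of the 10 genes, as in 50.7% of all genes. The median log2 fold change was -0.15 over the 10 genes and -0.0026 over all genes tested. In bulk tissue, fewer cells of a type and less RNA per cell cannot be told apart.

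**Figure D1:**
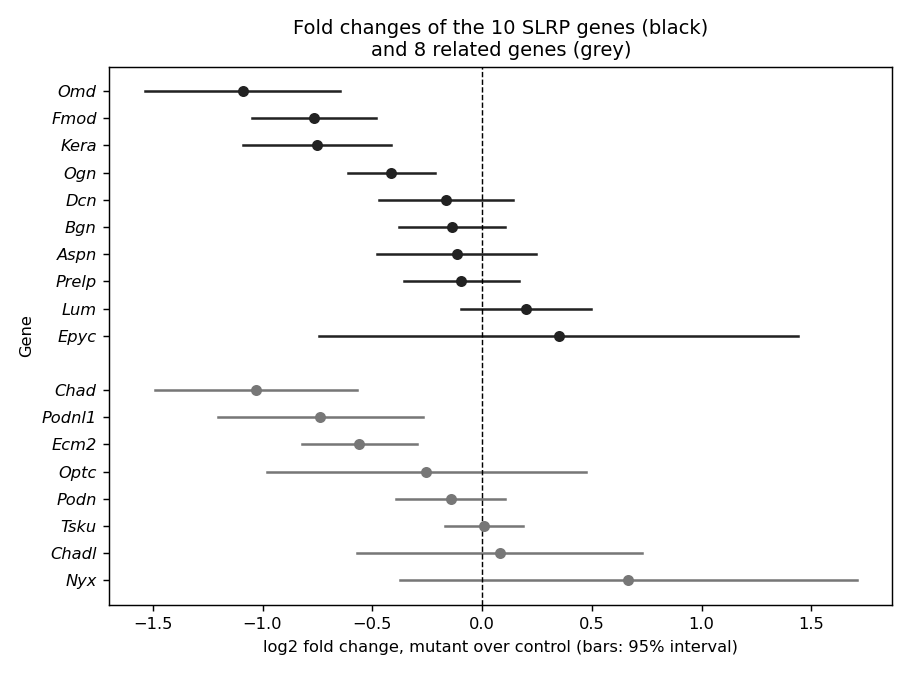
The log2 fold change, mutant over control, is plotted for the 10 SLRP genes (black) and 8 related leucine-rich proteoglycan genes (grey), with 95% intervals as bars from edgeR's fit to 3 libraries per group. The unadjusted intervals of Omd, Fmod, Kera and Ogn lie below 0, and those of the other 6 SLRP genes include 0.

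Between genes, levels were compared per length in RPKM (CPM per kilobase of exon). Bgn and Fmod stood highest, at 444 to 516 RPKM and 270 to 579 RPKM over the 6 libraries, and ranked 60 and 77 by mean RPKM among all genes counted. Aspn (172 to 267 RPKM), Dcn (140 to 210 RPKM), Lum (133 to 195 RPKM) and Ogn (122 to 185 RPKM) followed, and their ranges overlapped, although Aspn exceeded Dcn in 6 of 6 libraries (5 of 6 on principal transcript length). Kera (47.1 to 110 RPKM) and Prelp (45.4 to 62.4 RPKM) were lower, and Epyc (1.13 to 6.06 RPKM) and Omd (1.77 to 5.62 RPKM) were lowest. Bgn exceeded Fmod in 4 of 6 libraries (control 2 and the 3 mutants), and Epyc exceeded Omd in 3 of 6, so that neither pair had a fixed order on this length. Epyc also lost reads to an overlapping gene, described below, which lowers its RPKM on either length. Fmod exceeded Aspn, Ogn exceeded Kera, and Prelp exceeded Epyc in all 6 libraries without overlap of their ranges. The length in the count files sums all annotated exons, which for Bgn came to 6099 bases. With the length of its principal transcript in GENCODE, 2419 bases, the mean level of Bgn would be 1194 RPKM in place of 473 RPKM, and the order of Lum and Ogn would exchange. On that length Bgn exceeded Fmod in 6 of 6 libraries and Epyc exceeded Omd in 5 of 6, while Kera exceeded Prelp in 3 of 6 in place of 6 of 6.

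**Figure D2:**
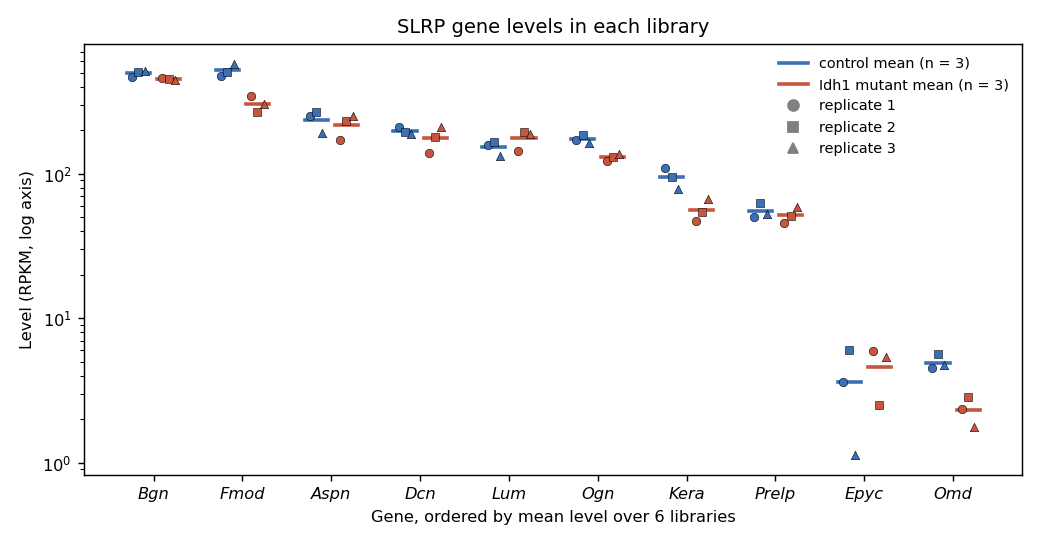
Levels in RPKM on a log axis are plotted for each library (points, shaped by replicate number) with the group mean (line) for 3 controls and 3 mutants. Control and mutant points are apart for Fmod, Ogn, Kera and Omd, narrowly apart for Bgn, and mixed for the other 5 genes.

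Among the class I genes, Bgn (ENSMUSG00000031375, chromosome X from 73483602 to 73495933 of GRCm38) encodes biglycan, which is abundant in cartilage and bone. Its level was 2828, 3100 and 3146 CPM in controls and 2794, 2750 and 2709 CPM in mutants. Each mutant lay below each control, but mutant 1 and control 1 were close. The log2 fold change was -0.14 (standard error 0.11, 95% interval -0.38 to 0.10, adjusted p = 0.799, edgeR). Because Bgn is X-linked and mutant 3 stood apart in Xist, the fit was also read without mutant 3, where the log2 fold change was -0.13.

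Dcn (ENSMUSG00000019929, chromosome 10 from 97479500 to 97518162) encodes decorin, which binds along collagen fibrils. Its level was 438, 406 and 393 CPM in controls and 291, 377 and 437 CPM in mutants. Mutant 1 was the lowest library and mutant 3 was level with control 1, so that the groups overlapped (log2 fold change -0.16, 95% interval -0.47 to 0.14). The fold change of Dcn was -0.02 without mutant 1 and -0.31 without mutant 3. Aspn (ENSMUSG00000021388, chromosome 13 from 49544443 to 49567557) encodes asporin, which binds collagen and TGF-beta. It had 593, 625 and 448 CPM in controls and 404, 546 and 588 CPM in mutants. Again the groups overlapped, with control 3 and mutant 1 low (log2 fold change -0.12, 95% interval -0.48 to 0.25). Without mutant 1 the log2 fold change of Aspn was 0.03, so that its direction rested on that library.

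Of the class II genes, Fmod (ENSMUSG00000041559, chromosome 1 from 134037254 to 134048277) encodes fibromodulin, a collagen-binding proteoglycan of tendon and cartilage. It had 1578, 1662 and 1913 CPM in controls and 1146, 891 and 998 CPM in mutants. The highest mutant was well below the lowest control. The log2 fold change was -0.76 (standard error 0.13, 95% interval -1.05 to -0.48, adjusted p = 0.0602, edgeR), the 40th lowest p among the genes tested. With DESeq2 its adjusted p was 1.67e-07. When single libraries were left out, the log2 fold change lay between -0.86 and -0.67.

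Kera (ENSMUSG00000019932, chromosome 10 from 97607205 to 97613688) encodes keratocan, which is best known from cornea and is also found in tendon. Its level was 215, 184 and 153 CPM in controls and 91.8, 106 and 131 CPM in mutants. The groups did not overlap, and control 3 and mutant 3 were the nearest libraries. The log2 fold change was -0.75 (standard error 0.15, 95% interval -1.09 to -0.41, adjusted p = 0.135, edgeR), and DESeq2 gave an adjusted p of 0.000190.

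Omd (ENSMUSG00000048368, chromosome 13 from 49582766 to 49592609) encodes osteomodulin, also called osteoadherin, a keratan sulfate proteoglycan of mineralized bone matrix. It was among the least abundant SLRP genes, with 197, 268 and 203 counts in controls and 87, 109 and 80 counts in mutants. In CPM these were 7.0, 8.74 and 7.33 against 3.69, 4.43 and 2.76. All mutants were below all controls. The log2 fold change of -1.09 (standard error 0.20, 95% interval -1.54 to -0.65, adjusted p = 0.0952, edgeR) was the furthest below 0 in the family, and DESeq2 gave an adjusted p of 0.000234. Of 7 osteoblast markers, 6 had a fold change above 0 and edgeR, DESeq2 and limma-voom called 0. At an unadjusted p under 0.05 with edgeR, 2 were higher (Ibsp and Dmp1, both also called by edgeR without the low-count filter) and 1, Runx2, was lower (log2 fold change -0.36). Their summed level was 327 to 1289 CPM in controls and 1225 to 1954 CPM in mutants, with none at 0, and their part in the level of Omd was not tested.

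Lum (ENSMUSG00000036446, chromosome 10 from 97565501 to 97572703) encodes lumican, which binds fibrillar collagens in many connective tissues. It had 330, 343 and 277 CPM in controls and 296, 404 and 391 CPM in mutants. Mutants 2 and 3 were above all controls, while mutant 1 lay within them (log2 fold change 0.20, 95% interval -0.10 to 0.50). The fold change of Lum was 0.33 without mutant 1, 0.12 without mutant 2 and 0.115 without control 3. Prelp (ENSMUSG00000041577, chromosome 1 from 133910304 to 133921414) encodes prolargin, which binds collagen and heparan sulfate. Its levels overlapped throughout, at 182, 226 and 191 CPM in controls and 164, 183 and 213 CPM in mutants (log2 fold change -0.09, 95% interval -0.36 to 0.17). Without control 2 the log2 fold change of Prelp was 0.0085, on the other side of 0.

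Of the class III genes, Ogn (ENSMUSG00000021390, chromosome 13 from 49608071 to 49624500) encodes osteoglycin, also called mimecan. Its level was 434, 469 and 414 CPM in controls and 311, 332 and 347 CPM in mutants. Replicates were close to each other and the groups were apart. The log2 fold change was -0.41 (standard error 0.09, 95% interval -0.61 to -0.21, adjusted p = 0.149, edgeR), and DESeq2 gave an adjusted p of 0.00173. Epyc (ENSMUSG00000019936, chromosome 10 from 97644068 to 97682454) encodes epiphycan, a proteoglycan of growth plate cartilage. It varied most, with 9.34, 15.5 and 2.89 CPM in controls and 15.3, 6.42 and 13.7 CPM in mutants. The level of Epyc in control 2 was 5.37 times that in control 3, and the groups overlapped (log2 fold change 0.35, 95% interval -0.74 to 1.44). Control 3 was also lowest in the summed level of chondrocyte markers, at 3924 CPM, against 6103 and 8227 CPM in controls 1 and 2. In mutants 1, 2 and 3 that sum was 8531, 5864 and 6625 CPM, lowest in mutant 2, as for Epyc. The part of the chondrocyte markers in the level of Epyc was not tested. Without control 3 the log2 fold change of Epyc was -0.07, so that its direction also rested on a single library.

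All SLRP genes here except Bgn lie in groups on chromosomes 1, 10 and 13, and the ratio of genes that lie side by side was compared between genotypes. On chromosome 10, Dcn, Lum, Kera and Epyc follow each other on the forward strand, with gaps of 47.3, 34.5 and 30.4 kb. On chromosome 13, Aspn, Omd and Ogn do so with gaps of 15.2 and 15.5 kb, and on chromosome 1, Fmod lies 116 kb from Prelp, on the opposite strand. No other protein-coding gene lies wholly within these gaps. The ratio of neighbours within a library does not depend on how libraries are scaled, and it was taken for all 6 neighbouring pairs. Kera over Lum was -0.53, -0.81 and -0.76 on the log2 scale in controls and -1.60, -1.85 and -1.49 in mutants, a difference of -0.95 between group means. Fmod over Prelp was 3.25, 3.01 and 3.46 in controls and 2.93, 2.41 and 2.36 in mutants, a difference of -0.67. Both ratios were thus lower in every mutant than in every control.

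Omd over Aspn was -5.81, -5.57 and -5.34 on the log2 scale in controls and -6.18, -6.35 and -7.14 in mutants. Ogn over Omd was 5.25, 5.04 and 5.11 in controls and 5.69, 5.52 and 6.27 in mutants. Lum over Dcn was -0.40, -0.24 and -0.50 in controls and 0.03, 0.11 and -0.15 in mutants. The groups were apart in these pairs too, and overlapped only in Epyc over Kera among the 6 pairs. Over 11425 pairs of neighbouring protein-coding genes that were both tested, the groups were apart in 15.1%, in either direction. The 6 SLRP pairs are not independent of the single genes, since 4 of the 5 separated pairs hold Fmod, Kera or Omd, whose groups were apart on their own, and Omd stands in 2 of them. Each of the 5 separated pairs had an exact two-sided permutation p = 0.1, the smallest that 3 libraries against 3 allow. Their adjusted p was 0.12 over the 6 pairs. No pair could pass at 0.05, so that the test decides nothing here.

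**Figure D3:**
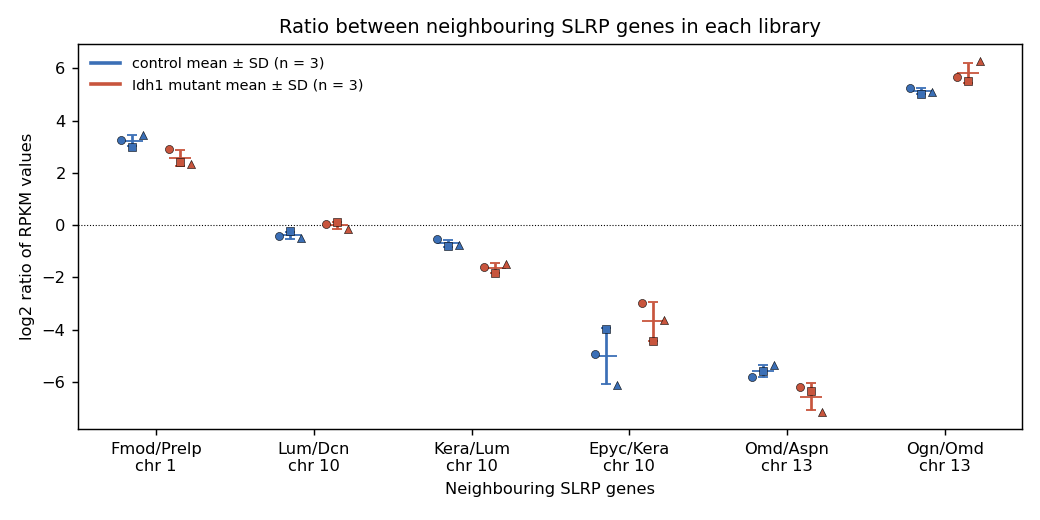
The log2 ratio of RPKM values between neighbouring SLRP genes is plotted for each library (points, shaped by replicate number) with the mean and SD of 3 controls and 3 mutants. The groups are apart in 5 of 6 pairs, with a difference of -0.95 for Kera over Lum, and overlap for Epyc over Kera.

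The counts ignored strand, so that overlapping genes limit some of these values. Aspn, Omd and Ogn lie inside Cenpp, a centromere protein gene on the opposite strand, which had 108 to 197 counts per library. It shares 7 exon bases with Aspn and 0 with Omd and Ogn. The long noncoding gene Gm10754 shares 1041 of 2561 exon bases with Epyc and had 0 counts in all libraries, and reads in the shared stretch were left out of both. The RPKM of Epyc were still divided by all 2561 bases and are therefore too low, so that its order against Omd is not settled. The antisense gene Gm15851 shares 350 exon bases with Prelp and had at most 2 counts.

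The 100 bases before the RefSeq start sites of Aspn, Omd and Ogn are shown because these neighbours differed in fold change. On the log2 scale it ran from -1.09 (Omd) to -0.12 (Aspn). The permutation test of their ratio could not decide this difference, since p = 0.1 is the smallest that 3 libraries against 3 allow. The bases before Fmod are shown because it was the most abundant of the 4 genes with an unadjusted p under 0.05. Positions are on GRCm38.p6 for Aspn (chr13:49544343-49544442), Omd (chr13:49582362-49582461), Ogn (chr13:49607915-49608014) and Fmod (chr1:134037154-134037253), all on the forward strand. The RefSeq start sites of Omd and Ogn lie upstream of the gene starts in the count files. Capitals mark CANNTG, the E-box of basic helix-loop-helix factors. It was searched together with TATAAA and AACAAT on both strands, and none of these matches overlapped another motif.
Aspn: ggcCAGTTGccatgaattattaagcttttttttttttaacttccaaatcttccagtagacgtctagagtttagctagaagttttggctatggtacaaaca
Omd: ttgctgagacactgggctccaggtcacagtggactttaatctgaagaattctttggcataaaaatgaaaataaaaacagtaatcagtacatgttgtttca
Ogn: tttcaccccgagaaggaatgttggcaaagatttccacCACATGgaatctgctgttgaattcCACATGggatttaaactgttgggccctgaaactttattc
Fmod: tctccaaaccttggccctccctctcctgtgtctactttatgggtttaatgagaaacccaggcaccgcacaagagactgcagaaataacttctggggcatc
Ogn held CANNTG at 2 places and Aspn at 1, while Omd and Fmod held none of the 3 motifs in this window. Over 32844 RefSeq promoter windows of the same length, 34.5% held CANNTG, 5.56% held TATAAA and 3.36% held AACAAT. A promoter entry was matched for 8 of the 10 SLRP genes.

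The 8 other leucine-rich proteoglycan genes, a list of related family members, had a median log2 fold change of -0.20, with 5 below 0 and 3 above. edgeR called 0 of the 8, and 3 were lower at an unadjusted p under 0.05, against 4.93% of all genes. DESeq2 called 3, Chad, Ecm2 and Podnl1, all lower, against 0.839% of all genes, and limma-voom called 0. Chad encodes chondroadherin, a cartilage protein that binds cells and collagen. Its level was 39.6, 68.9 and 46.7 CPM in controls and 25.3, 30.6 and 20.4 CPM in mutants (log2 fold change -1.03, standard error 0.21, adjusted p = 0.135, edgeR). Ecm2, which lies 11.7 kb from Aspn on chromosome 13, had 91.0, 113 and 89.8 CPM in controls and 75.1, 59.5 and 65.0 CPM in mutants (log2 fold change -0.56, adjusted p = 0.142, edgeR). In both genes all mutants were below all controls, as in 7.58% of the tested genes. Tsku, which encodes tsukushi, had 64.8 ± 2.39 CPM (SD, n = 3) in controls and 65.2 ± 4.29 CPM (SD, n = 3) in mutants.

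No gene of the fibril collagens that SLRPs bind passed the test. Of 14 fibril, fibril-associated and type VI collagen genes edgeR, DESeq2 and limma-voom each called 0, and 0 had an unadjusted p under 0.05 with edgeR. Fold changes of the 14 genes ran from -0.15 for Col14a1 to 0.45 for Col2a1 on the log2 scale, with a median of 0.03, and the groups overlapped in all 14. Type IX collagen genes were counted with the chondrocyte markers instead. Col9a1, Col9a2 and Col9a3 had log2 fold changes of -0.43, -0.19 and -0.16, and their groups overlapped. Col1a1, which encodes a chain of type I collagen, had a log2 fold change of 0.01 (95% interval -0.42 to 0.44). Among 11 genes for collagen processing and crosslinking, 0 were called by edgeR, DESeq2 or limma-voom and 1, Adamts14, had an unadjusted p under 0.05 (log2 fold change 0.26).

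Genes that build the sugar chains of SLRPs did not pass the test either. Of 11 genes for keratan sulfate synthesis, 0 were called by edgeR, DESeq2 or limma-voom, and 2 had an unadjusted p under 0.05. Chst5, a sulfotransferase gene, had 28.1 ± 2.08 CPM (SD, n = 3) in controls and 35.8 ± 2.90 CPM (SD, n = 3) in mutants (log2 fold change 0.35, adjusted p = 0.300, edgeR). Fut8, a fucosyltransferase gene, had a log2 fold change of -0.21. Of 10 genes that start or epimerize chondroitin and dermatan sulfate chains, 0 were called by any of the same tools and 0 had an unadjusted p under 0.05, with fold changes from -0.13 to 0.16 on the log2 scale.

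Among 16 ligands, receptors and matrix partners that bind SLRPs, edgeR, DESeq2 and limma-voom called 0, and 2, Eln and Met, had an unadjusted p under 0.05. Eln, the gene of elastin, had 2111, 1208 and 1356 CPM in controls and 684, 1017 and 950 CPM in mutants (log2 fold change -0.82, standard error 0.22, adjusted p = 0.275, edgeR). Each mutant was below each control, with control 1 far above the rest. Without the low-count filter edgeR called Eln as lower (0.903% of all genes were called in either direction). Tgfb1, a ligand bound by decorin and biglycan, had a log2 fold change of 0.14 (95% interval -0.06 to 0.34).

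Markers of tendon and ligament, tissues in which Fmod and Kera are known to be expressed, were measured in the same libraries. Of 8 markers, edgeR called 1, Tnmd, lower in mutants, where it called 0.190% of all tested genes. Lower at an unadjusted p under 0.05 were 4, against 4.93% of all genes. All mutants were below all controls in 5 (Scx, Tnmd, Mkx, Fibin and Thbs2), against 7.58% of all genes. Tnmd, which encodes tenomodulin, fell from 548, 527 and 437 CPM in controls to 257, 287 and 321 CPM in mutants (log2 fold change -0.81, standard error 0.12, adjusted p = 0.0374, edgeR). Like Bgn, Tnmd is X-linked, and without mutant 3 its log2 fold change was -0.89. With libraries left out in turn, the adjusted p of Tnmd stayed under 0.05 only without control 3 (0.0372) and was 0.0901 to 0.211 without any other, while DESeq2 gave 2.23e-08 over all libraries and limma-voom 0.0466. DESeq2 also called Scx and Mkx, where it called 0.839% of all genes as lower in mutants. Scx and Mkx, genes of tendon transcription factors, had log2 fold changes of -0.46 (adjusted p = 0.135, edgeR) and -0.52 (adjusted p = 0.142, edgeR). Thbs4 and Tnc, at 0.02 and 0.13, did not share this direction. The summed level of the 8 markers was 4000 to 4124 CPM in controls and 3482 to 4085 CPM in mutants, with none at 0, and its part in the levels of Fmod, Kera, Ogn and Omd was not tested. Of 9 markers of loose connective tissue and perichondrium, edgeR, DESeq2 and limma-voom called 0 (0 at an unadjusted p under 0.05), and their summed level was 6882 to 7767 CPM in controls and 6175 to 9087 CPM in mutants.

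**Figure D4:**
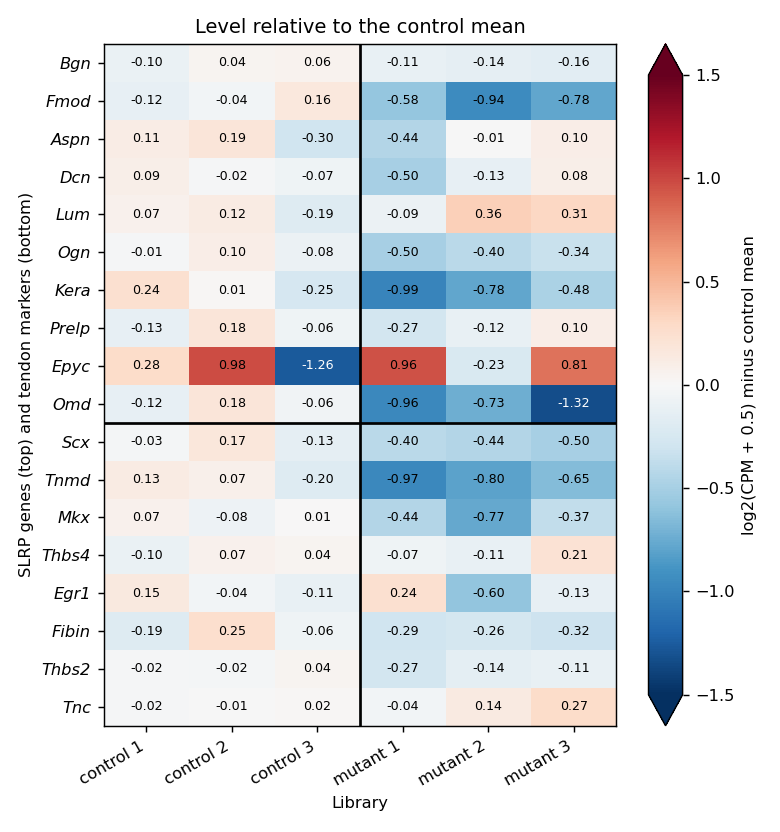
Each cell gives log2(CPM + 0.5) of a gene in a library minus the mean of the 3 controls, for the 10 SLRP genes (top) and 8 tendon markers (bottom). Fmod, Bgn, Ogn, Kera, Omd, Scx, Tnmd, Mkx, Fibin and Thbs2 are below 0 in all 3 mutants and below every control. Lum is above 0 in mutants 2 and 3, and Epyc changes sign within both groups.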

How the data were processed

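Growth plate RNA of 3 control and 3 mutant libraries was sequenced as 50 bp single-end reads after poly(A) selection. The authors trimmed the reads with Trim Galore 0.6.4, mapped them to GRCm38 with STAR 2.6.1d and counted them on exons with featureCounts 1.6.4, ignoring strand and leaving out reads that map to several places or genes. The deposited values are whole-number counts per gene, without normalization. The labels give the age as E18.5, while their text on animal care gives 2 months, and E18.5 was used.

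Low counts were removed by filterByExpr of edgeR 4.0.16 under R 4.3.3, at a count of 10 and a total of 15. After TMM scaling, its quasi-likelihood test with genotype as the single factor was run over 16813 genes. Standard errors were taken from the fold change and the F statistic, and 95% intervals from the t distribution with the fit's degrees of freedom, without adjustment for the number of genes. RPKM used the exon length in the count files. Alternatives were DESeq2 1.42.0, limma-voom (limma 3.58.1), upper-quartile factors, other low-count filters, the replicate number as a block, and each library left out in turn. Principal transcript length was chosen after seeing the data. The functions were tested on simulated counts. Overlaps were taken from GENCODE M21 of the same build and promoters from RefSeq (GRCm38.p6). Neighbour ratios were tested with an exact permutation test in scipy 1.17.1, and figures were drawn with matplotlib 3.10.9.

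Libraries of the same group differed beyond counting noise, with chi-square values of 11.6 to 45.1 for each degree of freedom. The study's model had a litter term, and litters are not given in the labels. The rule for named genes covered the 10 SLRP genes, genes that overlap them, called genes of the lists, and up to 3 further genes with the lowest p in each list of SLRP partners or tissue markers. Values were already in view when Tsku, Tgfb1, Col1a1, Thbs4, Tnc and the genes at the ends of a list's range were picked for naming. The members, gene lists and tests were chosen with earlier results of these data known. Counts in every list stand against the shares of all tested genes. These were 0.190% called by edgeR, 1.15% by DESeq2, 0.113% by limma-voom and 8.64% at an unadjusted p under 0.05 with edgeR. Of the remaining lists, edgeR called 0 of 5 hypertrophic chondrocyte, 5 endothelial and 6 immune and osteoclast markers (0, 2 and 3 at an unadjusted p under 0.05, and 0 each with DESeq2 and limma-voom). It called Sfrp5 (higher) of 7 resting and articular chondrocyte markers and Krt5 (lower) of 3 tested skin markers. DESeq2 also called both, and limma-voom called neither. Of the 7, 3 had an unadjusted p under 0.05 with edgeR, Sfrp5 higher and Ucma and Prg4 lower (log2 fold changes -1.02 and -0.73). Without the low-count filter edgeR also called Ucma and Prg4, and Lyz2 (higher) of the immune and osteoclast markers. In controls the study places Sfrp5 protein in proliferating and prehypertrophic chondrocytes, and in mutants in resting chondrocytes too. The study also lists Sfrp5 for a cell cluster found mainly in mutants, so that it was not read here as a marker of this class.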

Additional observations from a re-analysis of the deposited data

How the results depend on the processing

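Under the settings other than leaving out a library, 59 of 70 fold changes of the SLRP genes stayed on their side of 0 and of the threshold, 11 became significant and 0 reversed, and with single libraries left out 57 of 60 were kept and 3 reversed. With a library left out, the log2 fold change of Prelp ran from -0.20 to 0.0085 (above 0 without control 2), that of Epyc from -0.0709 to 0.95 (below 0 without control 3), and that of Aspn from -0.25 to 0.0297 (above 0 without mutant 1). SLRP genes called, 0 with edgeR, were 4 with DESeq2, 4 with edgeR without the low-count filter, and 3 (Fmod, Kera and Omd) with DESeq2 and the replicate number as a block. Leaving out a library gave 0 to 0. Of all genes, 32 were called with edgeR, 194 with DESeq2, 19 with limma-voom, 259 without the low-count filter, 3 with the replicate block and 89 with DESeq2 and the block. Leaving out a library gave 3 to 17. Genes of the other lists called were 3 with edgeR, 9 with DESeq2, 1 with limma-voom, 19 without the low-count filter, 0 with the replicate block, 7 with DESeq2 and the block, and 0 to 1 with a library left out. For each of these counts the cause was not tested. With principal transcript length, Lum moved to rank 6 and Ogn to rank 5 by level. Same-numbered libraries deviated from their group means with correlations of -0.13, 0.0070 and -0.10, so that the numbers were not taken as pairs. With the block in edgeR, the adjusted p was 0.195 for Fmod, 0.188 for Omd and 0.402 for Kera and Ogn. With libraries left out, it lay between 0.0927 and 0.290 for Fmod, 0.128 and 0.296 for Omd, 0.0998 and 0.491 for Kera, and 0.183 and 0.575 for Ogn. With 80 to 476 counts per library, Omd and Epyc had the fewest reads of the family.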
